A study of Mus musculus with 9 samples.

Results

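Expression of 10 genes at the centre of canonical Wnt signalling was followed in epithelial cells of the mouse small intestinal crypt after activation of natural killer T (NKT) cells. The genes were Axin2, Rnf43, Znrf3, Lgr4, Wnt3, Sox9, Myc, Sp5, Ephb2 and Ephb3. They were listed by name, with earlier results of these data known. The list holds known Wnt targets and feedback genes, and also the ligand gene Wnt3 and the R-spondin receptor gene Lgr4. Each gene was found in the count table by its Ensembl identifier. All 10 were among the 29288 genes of the table, and all 10 were among the 18933 genes with enough reads to be tested. Rnf43, Lgr4 and Sp5 were called lower 18 h after NKT cell activation than in controls, and of these Rnf43 kept its call in all 16 alternative fits, whereas Lgr4 lost it in 9 and Sp5 in 8. Together with Axin2 and Ephb2 these genes were called higher at 72 h than at 18 h. Of all genes tested, 2.69% were called lower at 18 h than in controls and 4.18% higher at 72 h than at 18 h. None of the 10 was called different from controls at 72 h, against 0.0264% of all genes tested.

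The cells were live EpCAM+ CD45- CD31- Ter119- intestinal epithelial cells (IECs), sorted from proximal small intestinal crypts of WT C57BL/6J females. Control mice received PBS and were sampled at 18 h. Treated mice received 2 µg of α-galactosylceramide (αGalCer, labelled αGal) intraperitoneally, a glycolipid that CD1d presents to NKT cells, and those sampled at 18 h formed the group 18h-αGal and those sampled at 72 h the group 72h-αGal. Each group held 3 mice with 1 library each. All animals were WT, αGalCer was given to the whole animal, and the study used young adult mice. The controls were sampled at 18 h only, so at 72 h the treatment and the time of sampling cannot be told apart. Both αGal groups were set against the same 3 controls, and the comparison of 72h-αGal with 18h-αGal uses the same 18h-αGal mice again, so the 3 comparisons are not independent of each other.

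In the crypt, Wnt ligands bind Frizzled and LRP receptors, which stops a destruction complex built around APC and AXIN proteins from degrading β-catenin. β-catenin then enters the nucleus and works with TCF and LEF proteins to switch on target genes that keep stem and progenitor cells dividing. Several targets act back on the pathway. AXIN2 rebuilds the destruction complex, RNF43 and ZNRF3 remove Frizzled receptors from the membrane, and R-spondins bound to LGR receptors block RNF43 and ZNRF3 in turn.

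The promoters of Sp5, Axin2 and Rnf43 are shown because these 3 genes had the lowest levels relative to controls at 18 h. Each window comes from RefSeq on build GRCm38.p6 and runs from 250 bases before to 50 bases after the annotated start, on the + strand. The windows were searched on both strands for CTTTGAT and CTTTGAA, the core words that TCF and LEF proteins are known to bind, and capitals mark a match. Sp5 lies at chr2:70474673-70474972, Axin2 at chr11:108920099-108920398 and the first of 2 Rnf43 windows at chr11:87662837-87663136.
Sp5: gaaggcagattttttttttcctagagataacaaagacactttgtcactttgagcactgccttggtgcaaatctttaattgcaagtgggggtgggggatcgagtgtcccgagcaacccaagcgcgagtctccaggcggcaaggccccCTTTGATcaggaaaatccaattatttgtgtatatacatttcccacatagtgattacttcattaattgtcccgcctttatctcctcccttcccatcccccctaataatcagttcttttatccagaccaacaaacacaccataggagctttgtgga
Axin2: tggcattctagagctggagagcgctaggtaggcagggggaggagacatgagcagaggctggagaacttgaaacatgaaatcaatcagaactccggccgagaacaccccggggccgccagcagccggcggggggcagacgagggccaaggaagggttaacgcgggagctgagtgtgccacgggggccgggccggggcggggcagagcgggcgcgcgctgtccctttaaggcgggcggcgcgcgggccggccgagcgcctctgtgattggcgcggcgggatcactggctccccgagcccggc
Rnf43: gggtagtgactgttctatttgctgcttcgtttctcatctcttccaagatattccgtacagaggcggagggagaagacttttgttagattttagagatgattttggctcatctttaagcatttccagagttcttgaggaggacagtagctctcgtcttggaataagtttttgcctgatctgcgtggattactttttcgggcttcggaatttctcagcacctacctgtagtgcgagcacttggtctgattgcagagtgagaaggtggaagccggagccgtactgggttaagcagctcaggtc

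The Sp5 window held CTTTGAT on its own strand, starting 104 bases before the start (position -104). Of the 10 genes, 7 had a window in this collection (8 windows in all), and Sp5 was the 1 gene of these with a match. Among all 32851 windows of this length, 2842 (8.65%) held at least 1 of these words, so a match is not rare. The absence of these letters from a short window says nothing about TCF or LEF binding elsewhere. Promoter windows of Znrf3, Sox9 and Myc were not used here.

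On GRCm39 (GENCODE vM39), 5 of the 10 genes lie on chromosome 11, namely Axin2 (ENSMUSG00000000142, chr11:108811169-108841609), Rnf43 (ENSMUSG00000034177, chr11:87553548-87626377), Znrf3 (ENSMUSG00000041961, chr11:5226324-5394939), Sox9 (ENSMUSG00000000567, chr11:112673009-112678586) and Wnt3 (ENSMUSG00000000125, chr11:103664976-103708853). Lgr4 (ENSMUSG00000050199, chr2:109747839-109844609) and Sp5 (ENSMUSG00000075304, chr2:70305267-70308073) lie on chromosome 2. Myc (ENSMUSG00000022346) lies at chr15:61857227-61862223, Ephb2 (ENSMUSG00000028664) at chr4:136374850-136563351 and Ephb3 (ENSMUSG00000005958) at chr16:21023495-21042057. All are protein-coding, and reads were counted over their exons. Antisense RNAs counted in the same table overlap 209 exonic bases of Axin2 (Gm11670) and 542 of Sox9 (BC006965). The kit marked strand, but the strand setting of the counting is not given in the sources used here, so reads of these pairs may have been exchanged. The antisense rows held 1.38 to 41.9 normalised counts for Gm11670 and 0 to 36.1 for BC006965, against at least 842 for Axin2 and 1505 for Sox9.

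Libraries held between 8887861 (control replicate 3) and 32722293 (control replicate 1) counted reads. Epithelial markers (Epcam, Cdh1, Krt8, Krt18 and Vil1) summed to between 69321 and 100888 normalised counts in every library, lymphocyte markers to at most 124, and myeloid markers to between 328 and 815. Summed levels of the crypt base stem cell markers Lgr5, Olfm4, Ascl2, Smoc2 and Rgmb were 31966 to 58304 in controls, 8989 to 30632 at 18 h and 38404 to 60353 at 72 h. The 18 h range lay below the others, by a narrow margin for 18h-αGal replicate 1 against control replicate 3. All 5 markers had lower fitted levels at 18 h than in controls, but 0 were called by edgeR, DESeq2 or limma. An unadjusted edgeR p under 0.05 was seen for 1 of the 5, against 10.3% of all genes lower. Lgr5 and Ascl2 are themselves Wnt targets. The lowest stem cell marker sums within each group were in control replicate 3, 18h-αGal replicate 3 and 72h-αGal replicate 2, and the same libraries were lowest for 9, 8 and 8 of the 10 Wnt genes. These libraries also had the highest enterocyte marker sum of their group. Control replicate 3 (8887861 counted reads) and 18h-αGal replicate 3 (14951274) were also the shallowest of their groups. In 72h-αGal, replicate 1 (16283386) was shallower than replicate 2 (19162563). Enterocyte markers (8 genes) summed to 74397 to 175708 in controls, 107955 to 178973 at 18 h and 47228 to 88735 at 72 h. The 72 h range of enterocyte markers lay below that at 18 h. Markers of fibroblasts, the main source of R-spondins and several Wnts in the gut wall, summed to 34.2 to 59.4 normalised counts in controls, 5.67 to 13.8 at 18 h and 2.02 to 29.0 at 72 h, and up to 4 of the 5 markers in the table were at 0 in a library, with Dcn at 0 in every library but control replicate 1. Sums of endothelial markers (40.5 to 57.1 in controls, 12.6 to 20.7 at 18 h and 19.7 to 22.8 at 72 h) and of enteroendocrine markers (8296 to 11224, 11769 to 18987 and 3711 to 5718) also differed between groups without overlap of the 18h-αGal libraries and the controls. In sorted bulk samples, fewer cells of a type and less RNA per cell cannot be told apart. The part of these markers, or of read depth, in the results that follow was not tested.

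To ask how the 10 genes responded at 18 h, the 18h-αGal libraries were compared with the controls in 1 model of all 9 libraries, with edgeR's quasi-likelihood test and Benjamini-Hochberg adjustment over the 18933 genes tested. A gene was called at an adjusted p under 0.05. All 10 genes had lower fitted levels at 18 h, and 3 of them, Rnf43, Lgr4 and Sp5, were called lower. Across all genes tested 2.69% were called lower and 3.27% higher, and 52.4% had a lower fitted level. At an unadjusted p under 0.05, 6 of the 10 were lower (Axin2, Rnf43, Sox9, Ephb2, Lgr4 and Sp5), against 10.3% of all genes. Because earlier results of these data were known when the 10 were listed, these shares are a description and not a test. The 3 libraries of 18h-αGal lay wholly below the 3 controls for 5 of the 10 (Axin2, Rnf43, Ephb2, Lgr4 and Sp5), against 12.3% of all genes. The median log2 fold change of the 10 was -0.52, against -0.03 for all genes tested.

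**Figure D1:**
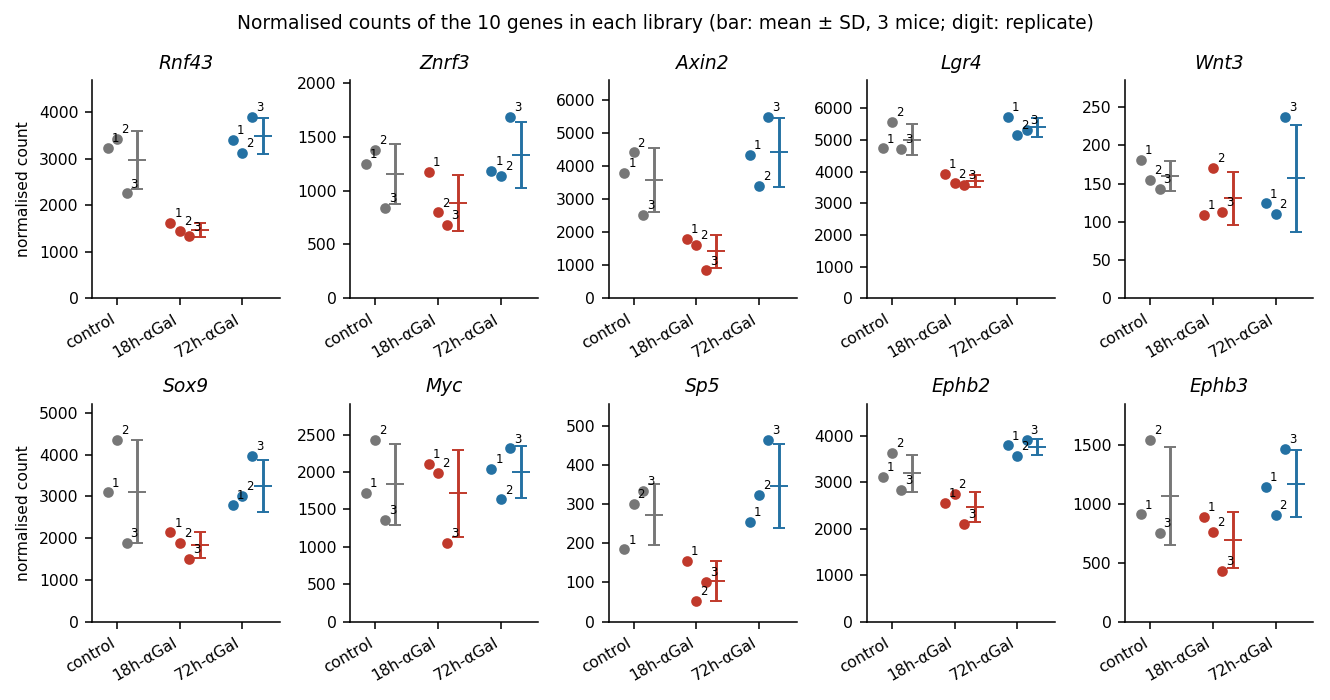
Normalised counts (y axis, each panel from 0) of the 10 genes in each library by group (x axis), where each point is 1 mouse with its replicate number and bars give the mean ± SD of 3 mice. For Rnf43, Axin2, Lgr4, Sp5 and Ephb2 all 18h-αGal points sit below all points of both other groups, whereas for Myc, Znrf3 and Wnt3 the groups overlap.

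Rnf43, a membrane ubiquitin ligase that removes Frizzled receptors, was called with the smallest adjusted p of the 10. Controls held 3231, 3423 and 2249 normalised counts (replicates 1 to 3), the 18h-αGal libraries 1614, 1450 and 1326, and the 72h-αGal libraries 3406, 3128 and 3900. Every 18h-αGal library was thus below every library of the other groups, at 44.7% to 54.4% of the control mean. The level fell by 1.01 ± 0.16 (log2, SE, n = 3 per group) against controls, with a 95% interval of -1.35 to -0.68 (edgeR, adjusted p 0.00194). This call was kept in all 16 alternative fits, with log2 fold changes from -1.18 to -0.90.

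Znrf3, the paralogue of Rnf43 with the same role, was not called. Its normalised counts were 1245, 1380 and 839 in controls, 1176, 797 and 678 at 18 h and 1180, 1136 and 1688 at 72 h. The 18h-αGal replicate 1 lay at the control mean and the other two below every control, so the groups overlapped. The log2 fold change at 18 h was -0.38 ± 0.24 (SE), with a 95% interval of -0.91 to 0.15 (edgeR, adjusted p 0.421). When 1 library was left out, the value lay between -0.65 (without 18h-αGal replicate 1) and -0.22 (without 18h-αGal replicate 3). The interval of Znrf3 overlaps that of Rnf43, and the difference between the 2 genes was not tested.

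Axin2, the scaffold of the destruction complex whose mRNA is the most widely used readout of canonical Wnt signalling, had 3814, 4425 and 2518 normalised counts in controls, 1797, 1618 and 842 at 18 h and 4360, 3399 and 5512 at 72 h. No 18h-αGal library reached the lowest control, and their levels were 23.5% to 50.1% of the control mean. The log2 fold change at 18 h was -1.33 ± 0.34 (SE), with a 95% interval of -2.11 to -0.55 (edgeR, adjusted p 0.0618), so Axin2 was not called over all genes. It was called with DESeq2 (log2 fold change -1.34, adjusted p 2.1e-05) and when control replicate 3 was left out of the edgeR fit (-1.53, adjusted p 0.0410). It was not called in the other 14 alternatives, in which its edgeR or limma adjusted p reached 0.163.

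Lgr4, a receptor for R-spondins on crypt cells, had the smallest standard error of the 10. Its normalised counts were 4736, 5577 and 4717 in controls, 3928, 3627 and 3579 at 18 h and 5742, 5152 and 5310 at 72 h. The 18h-αGal libraries formed a narrow group below all others, at 71.4% to 78.4% of the control mean. The level fell by 0.43 ± 0.11 (log2, SE) at 18 h, with a 95% interval of -0.66 to -0.19 (edgeR, adjusted p 0.0324), but the call was lost in 9 of 16 alternatives, where the adjusted p was at most 0.138. Wnt3, the ligand that Paneth cells supply to neighbouring stem cells, had 182, 155 and 143 normalised counts in controls, 108, 171 and 113 at 18 h and 124, 110 and 238 at 72 h. Its groups overlapped in every comparison, and its log2 fold change at 18 h was -0.29 ± 0.34 (SE), with a 95% interval of -1.01 to 0.44 (edgeR, adjusted p 0.700). When 1 library was left out, the value lay between -0.53 (without 18h-αGal replicate 2) and -0.17 (without 18h-αGal replicate 1).

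Among the transcription factors, Sp5, a zinc finger protein that Wnt signals induce directly, had the largest fold difference at 18 h. Its normalised counts were 184, 300 and 333 in controls, 154, 52.1 and 102 at 18 h and 254, 324 and 464 at 72 h. All 18h-αGal libraries were below the lowest control, by a narrow margin for 18h-αGal replicate 1 against control replicate 1. The level fell by 1.38 ± 0.37 (log2, SE), with a 95% interval of -2.17 to -0.58 (edgeR, adjusted p 0.0423), and the call was lost in 8 of 16 alternatives, with an adjusted p of at most 0.151. Sox9, needed for Paneth cell formation and present in crypt base cells, had 3094, 4351 and 1881 normalised counts in controls, 2136, 1880 and 1505 at 18 h and 2790, 3003 and 3965 at 72 h. Control replicate 3 was level with 18h-αGal replicate 2, and the other controls were above all 18h-αGal libraries. The log2 fold change of Sox9 was -0.75 ± 0.29 (SE, edgeR adjusted p 0.177), and without control replicate 3 it was -1.01, with an adjusted p of 0.00643. Without control replicate 2 it was -0.43, with an adjusted p of 0.358, and DESeq2 called it (-0.76, adjusted p 0.0293).

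Myc, which drives growth and cell division, was not called. Its normalised counts were 1724, 2429 and 1360 in controls, 2112, 1993 and 1050 at 18 h and 2047, 1634 and 2317 at 72 h. The 18h-αGal replicates 1 and 2 lay within the range of the controls and replicate 3 below it. The log2 fold change at 18 h was -0.09 ± 0.30 (SE), with a 95% interval of -0.76 to 0.58 (edgeR, adjusted p 0.910), and its sign turned to 0.17 without 18h-αGal replicate 3 or without control replicate 2.

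The receptor tyrosine kinases EPHB2 and EPHB3 keep dividing cells in the crypt and sort cells along its axis. Ephb2 had 3127, 3630 and 2836 normalised counts in controls, 2552, 2753 and 2110 at 18 h and 3798, 3567 and 3915 at 72 h. All 18h-αGal libraries were below all controls, with replicate 2 close to the lowest control. Its log2 fold change was -0.36 ± 0.13 (SE, edgeR adjusted p 0.116), and it was called when control replicate 3 was left out (-0.45, adjusted p 0.0459). Ephb3 had 911, 1544 and 754 normalised counts in controls, 890, 765 and 432 at 18 h and 1142, 904 and 1470 at 72 h. Its 18h-αGal libraries overlapped the controls, with a log2 fold change of -0.61 ± 0.34 (SE, edgeR adjusted p 0.349). That value was -0.24 without control replicate 2, -0.36 without 18h-αGal replicate 3 and -0.84 without 18h-αGal replicate 1.

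The number of Wnt genes called at 18 h thus varied with the libraries fitted. It ranged from 1 to 5 over the fits that left out 1 library. Over all genes, 1128 were called with every library, 432 without 18h-αGal replicate 2, 1556 without control replicate 3 and 1126 without 18h-αGal replicate 3. Without 72h-αGal replicate 1, which is not in this comparison, 834 were called. The log2 fold changes of Lgr4 and Sp5 then stayed at -0.43 and -1.38. The part of this general shift in the calls of the Wnt genes was not tested. Of the Wnt genes, only Rnf43 remained called without control replicate 2, 18h-αGal replicate 2 or 3, or 72h-αGal replicate 1 or 2. Without control replicate 3, Axin2, Rnf43, Sox9, Ephb2 and Lgr4 were called and Sp5 was not. Without 18h-αGal replicate 3, the library with the lowest stem cell marker sum, the log2 fold changes were -0.94 for Rnf43, -0.39 for Lgr4 and -1.36 for Sp5, with edgeR adjusted p of 0.00580, 0.0689 and 0.0986.

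**Figure D2:**
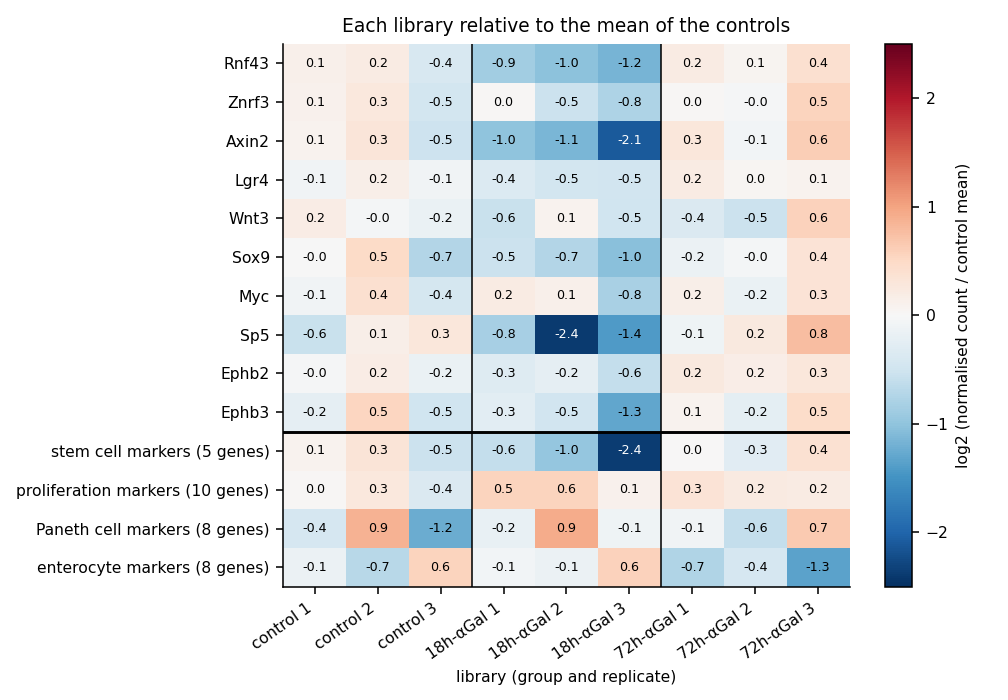
Log2 ratio of the normalised count of each gene (rows) in each library (columns) to the mean of the 3 controls, with the summed levels of 4 marker lists below the thick line and colours from blue (lower) to red (higher). The 18h-αGal columns are blue for most Wnt genes and for stem cell markers, deepest in replicate 3 for Axin2 (-2.1) and stem cell markers (-2.4), whereas the proliferation markers are at or above the control mean there.

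Fitted levels of all 10 markers of dividing cells were higher at 18 h than in controls, with a median log2 fold change of 0.39. Of these, 1 (Birc5) was called by edgeR and 3 by DESeq2, and 5 had an unadjusted p under 0.05. Across all genes tested, 47.6% had a higher fitted level and 3.27% were called higher by edgeR. With DESeq2, 1657 genes were called at 18 h in either direction. The share of all genes higher at an unadjusted p under 0.05 was not counted. The 10 proliferation markers, among them Mki67, Top2a and Pcna, summed to 18991 to 29236 normalised counts in controls, 26167 to 35638 at 18 h and 28139 to 30795 at 72 h. The ranges of controls and 18h-αGal overlapped. Paneth cell markers summed to 18541 to 79865 in controls and 38529 to 82765 at 18 h, and these ranges overlapped. The part of either marker list in the levels of the Wnt genes was not tested.

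At 72 h, none of the 10 genes was called against controls, and none had an unadjusted p under 0.05. Across all genes tested, 0.0264% were called and 5.94% had an unadjusted p under 0.05. For none of the 10 were the 72h-αGal libraries wholly above or below the controls, against 12.7% of all genes. Fitted levels were higher than in controls for 9 of the 10 and lower for Wnt3 (log2 fold change -0.01 ± 0.34, SE), with a median of 0.18 against 0.00 for all genes tested. The largest were Sp5, with 0.38 ± 0.36 (SE) and a 95% interval of -0.39 to 1.15, and Axin2, with 0.32 ± 0.33 and an interval of -0.45 to 1.08. For Lgr4 the interval was narrow, from -0.11 to 0.36 around 0.12. These intervals do not show that the levels were equal to those of controls. DESeq2 also called 0 of the 10 at 72 h.

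The difference between both αGal groups was tested directly. All 10 genes had higher fitted levels at 72 h than at 18 h, and Axin2, Rnf43, Lgr4, Sp5 and Ephb2 were called higher, against 4.18% of all genes called higher and 6.04% called lower. The 72h-αGal libraries lay wholly above the 18h-αGal libraries for 7 of the 10 (those 5, Sox9 and Ephb3), against 16.6% of all genes. The median log2 fold change of the 10 was 0.68, against 0.05 for all genes tested, and 53.4% of all genes had a higher fitted level at 72 h.

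Sp5 rose by 1.76 ± 0.37 (log2, SE) between 18 h and 72 h, a fitted 3.38-fold difference (edgeR, adjusted p 0.00864). Axin2 rose by 1.64 ± 0.34, or 3.12-fold (edgeR, adjusted p 0.0218), and its 72h-αGal libraries held 94.8% to 154% of the control mean. Rnf43 rose by 1.26 ± 0.16, or 2.39-fold (edgeR, adjusted p 3.0e-04). The receptors differed less, with 0.61 ± 0.13 for Ephb2 (adjusted p 0.00833) and 0.55 ± 0.11 for Lgr4 (adjusted p 0.00614). The calls of Rnf43, Lgr4, Sp5 and Ephb2 were kept in all 16 alternative fits. The call of Axin2 was lost in 4, namely without a filter on low counts, without 18h-αGal replicate 2 and without 72h-αGal replicate 1 or 3, with adjusted p from 0.0574 to 0.0816.

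The other 5 genes were not called between 18 h and 72 h. Sox9 had a log2 fold change of 0.83 ± 0.29 (SE) and Znrf3 of 0.60 ± 0.24, with edgeR adjusted p of 0.114 and 0.149 and 95% intervals that excluded 0. Sox9 was called in 4 of 16 alternatives and Znrf3 in 1. Ephb3 had a log2 fold change of 0.75 ± 0.34 (adjusted p 0.206). Wnt3 (0.28 ± 0.34, adjusted p 0.678) and Myc (0.22 ± 0.30, adjusted p 0.720) had intervals that spanned 0 widely.

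**Figure D3:**
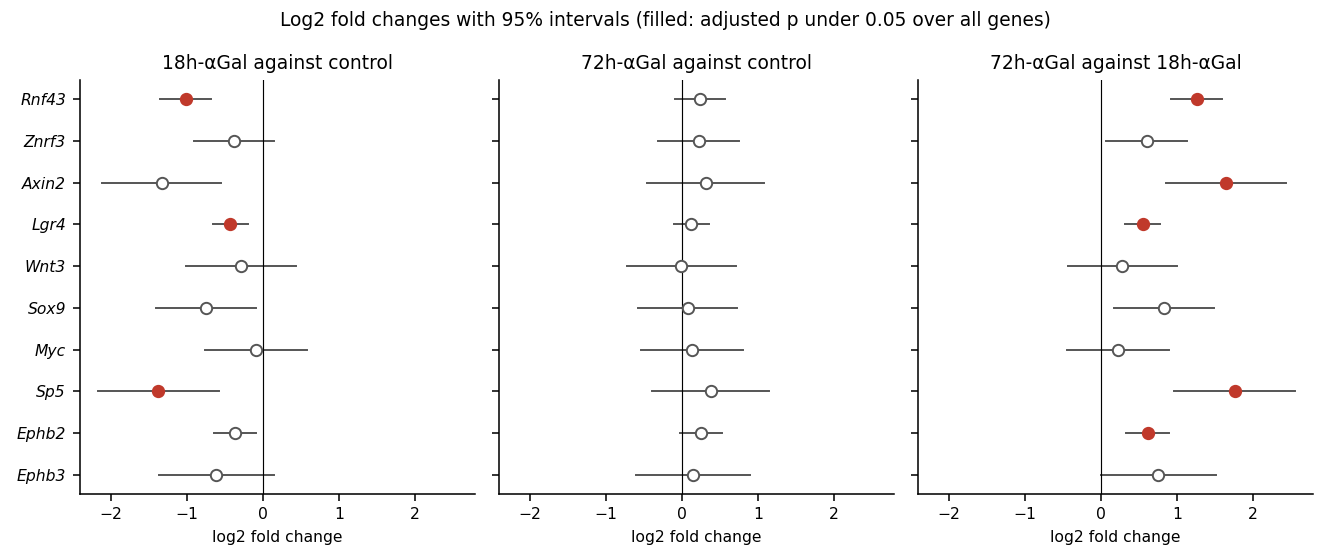
Log2 fold changes (x axis) of the 10 genes (rows) in the 3 comparisons, with bars for the 95% interval and filled points for an edgeR adjusted p under 0.05 over all genes. The 18 h points all lie left of 0, from -1.38 for Sp5 to -0.09 for Myc, the 72 h points against controls all have intervals that include 0, and the points of 72h-αGal against 18h-αGal all lie right of 0.

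Levels of the 10 genes can be compared with each other only per length, as normalised counts per kilobase of exon. The length was the union of exons over all annotated transcripts of a gene, not of the transcripts expressed. The order depends on this length, which the SD between mice does not cover. In controls Sox9 (744 ± 296, SD, n = 3), Lgr4 (673 ± 66.0), Myc (673 ± 199), Axin2 (517 ± 141) and Rnf43 (452 ± 95.9) were the highest, and neighbours in this order did not differ beyond their spread. Ephb2 followed with 253 ± 31.7, and its highest control (287) was below the lowest of Rnf43 (342). Ephb3 (155 ± 60.5), Znrf3 (144 ± 35.1) and Sp5 (128 ± 36.6) overlapped, and the highest Ephb3 control (223) fell just short of the lowest Ephb2 control (224). Wnt3 was lowest with 50.7 ± 6.32, its highest control (57.7) being below the lowest of Sp5 (86.5). At 18 h the per-kilobase levels of Axin2 (205 ± 73.3) and Rnf43 (223 ± 22.0) overlapped that of Ephb2 (195 ± 26.0), and that of Sp5 (48.2 ± 23.9) overlapped that of Wnt3 (41.6 ± 11.0).

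Genes of the rest of the pathway, and of the MYC network of dimerisation partners and rivals, were read from lists by role. These 104 genes, named other pathway genes below, included 75 that were tested. At 18 h, 3 of the 75 were called higher (Ccnd1, Max and Mlx), against 3.27% of all genes, and 4 lower (Mycn, Wls, Mxd4 and Lef1), against 2.69%. Of these, Max, Mlx, Mycn and Mxd4 came from the MYC network, which held 10 of the tested genes. Fitted levels were higher for 27 and lower for 48, with a median log2 fold change of -0.18. The calls of Ccnd1 and Mycn were kept in all 16 alternative fits, and those of the other 5 were lost in 5 to 9 of them. At 72 h against controls 0 of the 75 were called in edgeR's test or with DESeq2, and 4 had an unadjusted p under 0.05 (1 higher and 3 lower), against 5.94% of all genes. Between 18 h and 72 h, 7 were called higher, against 4.18% of all genes, and 5 lower, against 6.04%, with a median of 0.24, and the calls of Ccnd1, Ccnd2, Mycn and Mlx were kept in all 16 alternatives and those of the other 8 lost in 2 to 10. Setting the genes at 0 in a group to their bound left each of these medians as it was. It could not have moved them, because each bound lay on the same side of the median as the fitted value.

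Ligands, R-spondins and secretion factors numbered 24, of which 8 were tested. Wls, the carrier that takes Wnt proteins to the cell surface, was the 1 gene of them called. It held 943, 1074 and 708 normalised counts in controls, 588, 561 and 508 at 18 h and 842, 786 and 961 at 72 h, and every 18h-αGal library was below every other library. It fell by 0.71 ± 0.17 (log2, SE) at 18 h (edgeR adjusted p 0.0238) and rose by 0.65 ± 0.17 by 72 h (adjusted p 0.0262).

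Of the 12 Wnt and R-spondin receptors tested, 9 were lower at 18 h, against 52.4% of all genes. By edgeR 0 of them were called, and by DESeq2 and limma 1 each. At an unadjusted p under 0.05, 5 were lower, against 10.3% of all genes. Lgr5, the R-spondin receptor that marks crypt base stem cells, had 2424, 3241 and 932 normalised counts in controls, 1564, 858 and 411 at 18 h and 2007, 1931 and 3154 at 72 h. Control replicate 3 fell among the 18h-αGal libraries, and the log2 fold change of Lgr5 was -1.21 ± 0.62 (SE, edgeR adjusted p 0.344). Fzd5, a Frizzled receptor of Paneth and crypt cells, was called between 18 h and 72 h, where it rose by 0.44 ± 0.11 (adjusted p 0.0199).

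Few genes of the machinery that carries the signal inside the cell were called. None of the 8 destruction complex genes was called at 18 h by edgeR, DESeq2 or limma, and 1 (Gsk3a, higher) had an unadjusted p under 0.05. Apc, the scaffold lost in most colorectal tumours, had a log2 fold change of -0.001 ± 0.10 (SE) with a 95% interval of -0.21 to 0.20, and Ctnnb1, which encodes β-catenin, had one of -0.004 ± 0.10 with an interval of -0.22 to 0.21. Tcf7l2, the main TCF of intestinal epithelium, had 0.33 ± 0.13 (adjusted p 0.140). Gsk3a, a kinase of the complex, fell by 0.43 ± 0.13 between 18 h and 72 h (adjusted p 0.0466), and Bcl9l, a β-catenin cofactor, rose by 0.58 ± 0.15 (adjusted p 0.0213). Lef1, a TCF family factor, was at 0 in all 3 libraries of 18h-αGal, against 1.76, 43.7 and 11.9 normalised counts in controls and 5.79, 13.1 and 36.1 at 72 h. It was called lower at 18 h than in controls and higher at 72 h than at 18 h (edgeR adjusted p 0.0451 and 0.0325), and these calls were lost in 9 and 7 of 16 alternatives, the first among others without control replicate 2, the highest control. A floor of 3 reads per library corresponds to 2.91 normalised counts at 18 h, which lies above control replicate 1, so no fold is given.

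Of the 12 Wnt inhibitors tested, 0 were called at 18 h by edgeR and 1 each by DESeq2 and limma. An unadjusted p under 0.05 was seen for 3 that were lower, against 10.3% of all genes lower, and for 1 that was higher. Nkd2, an inhibitor that acts on Dishevelled proteins, rose by 1.42 ± 0.40 (log2, SE) between 18 h and 72 h (adjusted p 0.0357). Of the 14 other intestinal Wnt targets, 9 were lower and 5 higher at 18 h, against 52.4% of all genes lower. Their median log2 fold change was -0.51, against -0.03 for all genes tested. Ccnd1, the cyclin D1 gene and a textbook Wnt target, was higher at 18 h. It held 1321, 1630 and 1436 normalised counts in controls, 3893, 3817 and 2801 at 18 h and 1926, 1464 and 1609 at 72 h, so every 18h-αGal library was above every other library. It rose by 1.27 ± 0.15 (SE) at 18 h (edgeR adjusted p 2.7e-04) and fell by 1.07 ± 0.15 by 72 h (adjusted p 7.7e-04). Its relative Ccnd2 had a log2 fold change of -0.45 ± 0.14 at 18 h (adjusted p 0.0674) and rose by 0.75 ± 0.14 between 18 h and 72 h (adjusted p 0.00403). Ascl2, a stem cell transcription factor, and Cd44, an adhesion receptor, were not called, with log2 fold changes at 18 h of -0.92 ± 0.46 and 0.10 ± 0.27 and adjusted p of 0.286 and 0.880.

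The 5 tested EphB receptors and ephrin-B ligands other than Ephb2 and Ephb3 held 0 calls at 18 h by edgeR, DESeq2 or limma, and 1 gene had an unadjusted p under 0.05. The MYC network of dimerisation partners and rivals held 4 calls among 10 genes at 18 h, 2 higher and 2 lower, against 3.27% and 2.69% of all genes. The call of Mycn was kept in all 16 alternatives, and those of Max, Mxd4 and Mlx were lost in 6, 8 and 5 of them. Mycn, the paralogue of Myc, had 282, 409 and 138 normalised counts in controls, 31.5, 19.8 and 60.7 at 18 h and 268, 251 and 263 at 72 h. All 18h-αGal libraries were below all others, and Mycn fell by 2.94 ± 0.43 (log2, SE) at 18 h (edgeR adjusted p 0.00147) and rose by 2.85 ± 0.43 by 72 h (adjusted p 0.00123). Max, the obligate partner of MYC, rose by 0.58 ± 0.15 (adjusted p 0.0324), and Mlx, a related dimerisation protein, by 0.71 ± 0.18 (adjusted p 0.0271). Mxd4, which competes with MYC for MAX, fell by 0.60 ± 0.16 (adjusted p 0.0379). Between 18 h and 72 h Max fell by 0.62 ± 0.15 and Mlx by 0.87 ± 0.18, and Mxi1, another rival of MYC, fell by 1.26 ± 0.32, with adjusted p of 0.0171, 0.00645 and 0.0376.

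**Figure D4:**
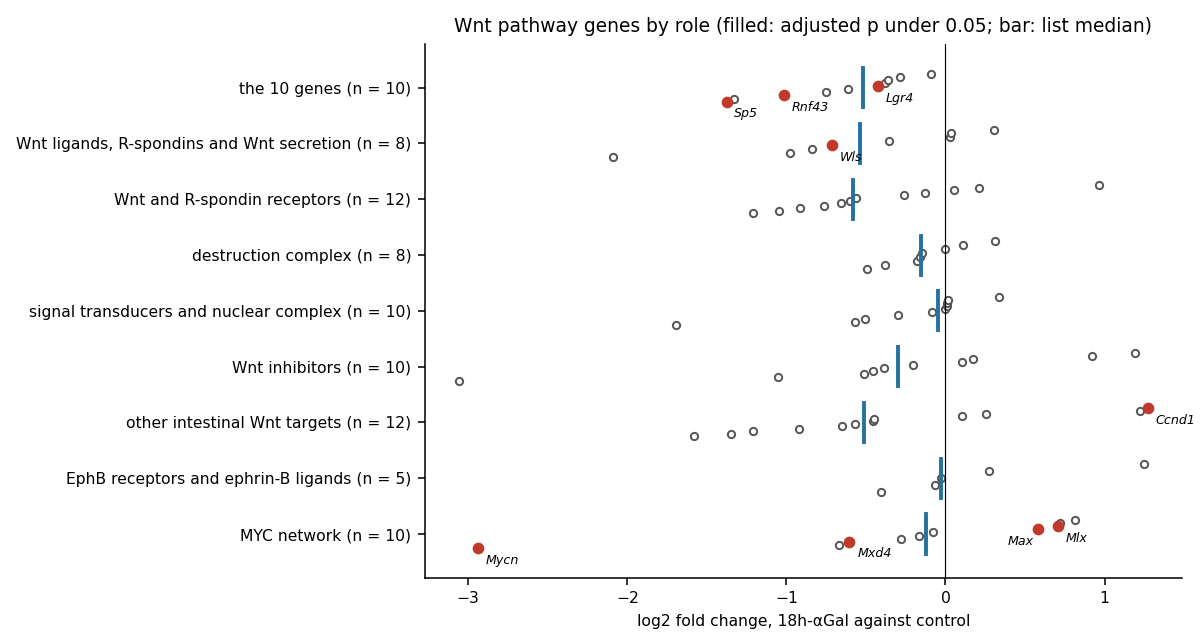
Log2 fold change at 18 h against controls (x axis) of the 10 genes and of the other tested pathway genes by role (rows), where each point is 1 gene, filled points were called (edgeR adjusted p under 0.05) and blue bars are medians over the genes drawn. Genes at 0 in a whole group (Lef1, Sfrp2 and Notum) are not drawn. The 10 genes lie left of 0 with a median of -0.52, destruction complex genes cluster near 0, and of the called genes Mycn lies farthest left (-2.94) and Ccnd1 farthest right (1.27).

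The pattern of Axin2 over the 9 libraries was shared most closely by Esrrg, Prr12, Sik3, Pip5k1c and Zfp704, with Pearson correlations of log2 CPM of 0.995, 0.993, 0.991, 0.986 and 0.986, the highest among 11148 genes with a mean of at least 100 counts. Esrrg, which encodes the nuclear receptor ERRγ, had means of 1380 ± 284, 707 ± 197 and 1579 ± 211 normalised counts (SD, n = 3) in controls, 18h-αGal and 72h-αGal. Of the Wnt genes, Rnf43 (0.967, rank 38) and Ephb2 (0.960, rank 63) were most like Axin2 and Lgr4 followed with 0.931. Sox9 and Ephb3 both had 0.906, Znrf3 0.870, Sp5 0.766, Myc 0.676 and Wnt3 0.510. These values describe 9 libraries in 3 groups that share depth, cell composition and treatment, and no p was computed.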

How the data were processed

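RNA was measured in 9 libraries, 3 mice per group, made with a directional kit after ribosomal RNA depletion and read as 100 bp. The authors mapped reads with HISAT2 (GRCm39 in the study's methods, GRCm38 and mm10 in the submitters' processing notes, which also list featureCounts of Subread and DESeq2 1.42.0) and deposited a raw count per gene and library. The deposited normalised signal equalled the count divided by 1 size factor per library. Annotation release and strand setting are not given in the sources used here.

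Genes were named from GENCODE vM39 (28480 of 29288 identifiers matched). Counts were filtered with filterByExpr, scaled by TMM and fitted with robust quasi-likelihood models in edgeR 4.0.16 (R 4.3.3), all 9 libraries in 1 fit with no covariate, followed by Benjamini-Hochberg adjustment over 18933 genes. The common dispersion was 0.123. The script was tested on simulated counts. The 16 alternatives were RLE or total-count scaling, no filter, DESeq2 1.42.0, limma 3.58.1 on log2(normalised count + 1), a replicate block, only the 6 libraries compared, and leaving out each library. A floor of 3 counts per library bounded genes at 0 in list medians. Intervals of fold changes cover the spread between mice. Replicates of a group differed beyond counting noise (chi-square per degree of freedom 13.1 to 42.0).

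Members and gene lists were chosen with earlier results of these data known, so no list was tested. Named were the 10 genes, Lgr5, Ascl2, Cd44, Ccnd1, Ctnnb1, Tcf7l2 and Apc, up to 5 called genes per list and direction, and the 5 genes most correlated with Axin2.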

Additional observations from a re-analysis of the deposited data

Results flagged for a closer look

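Of the 10 genes and 75 other pathway genes tested, 17 had effects of αGalCer that differed between 18 h and 72 h. The difference itself was tested (edgeR, Benjamini-Hochberg adjustment over all genes), and 4.18% of all genes were called higher and 6.04% lower. Because both effects share the controls, the difference equals the log2 fold change of 72h-αGal against 18h-αGal. Positive differences were 1.76 for Sp5, 1.64 for Axin2, 1.26 for Rnf43, 0.61 for Ephb2 and 0.55 for Lgr4 among the 10 genes. Among the other pathway genes they were 2.85 for Mycn, 1.42 for Nkd2, 0.75 for Ccnd2, 0.65 for Wls, 0.58 for Bcl9l and 0.44 for Fzd5. Negative differences were -1.26 for Mxi1, -1.07 for Ccnd1, -0.87 for Mlx, -0.62 for Max and -0.43 for Gsk3a. Lef1 had a fitted difference of 7.35, which depends on the prior count because Lef1 was at 0 in all 18h-αGal libraries and is no estimate of size. The 72h-αGal mice had no controls of their own time, so the difference holds both the treatment and the time of sampling.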

How the results depend on the processing

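The count of the 10 genes called at 18 h (3) was 3 under RLE scaling, total-count scaling, no filter and limma, 5 with DESeq2, 1 with the replicate block, 1 with only the 6 libraries compared, and 1 to 5 when 1 library was left out. At 72 h against controls it was 0 in all 16 alternatives, and between 18 h and 72 h (5) it was 4 to 6. The count of other pathway genes called at 18 h (7) was 14 with no filter, 14 with DESeq2, 3 with the replicate block, 2 with only 6 libraries, and 2 to 12 when 1 library was left out. Between 18 h and 72 h (12) it was 10 to 18, and 5 to 16 when 1 library was left out. Fits with fewer libraries estimate the spread from fewer mice, and the cause of the other shifts was not tested. Deviations of same-numbered mice from their group means had correlations from -0.150 to 0.115, over 0.1 in 1 of 9 pairs. With 3 mice a group these values cannot decide whether the numbers pair the samples, which the main fit treated as unpaired. Over all genes, 1128 were called at 18 h. That count was 1527 with no filter, 1657 with DESeq2, 781 with the replicate block and 593 with only 6 libraries. When 1 library was left out it was 432 to 1556. At 72 h against controls 5 were called (13 with no filter, 30 with DESeq2, 1 with the block, 0 to 20 when 1 library was left out). Between 18 h and 72 h 1936 were called (831 to 2593).

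Signs turned for Myc in all 3 comparisons, for Wnt3 in the 2 with 72h-αGal, and for Sox9 and Ephb3 at 72 h against controls. When 1 library was left out, the log2 fold change at 18 h ranged from -0.27 to 0.17 for Myc. At 72 h against controls it ranged from -0.44 to 0.20 for Wnt3, -0.18 to 0.40 for Sox9, -0.0391 to 0.39 for Myc and -0.0612 to 0.51 for Ephb3, and Wnt3 was 0.0502 with total-count scaling and 0.00624 with no filter. Between 18 h and 72 h it ranged from -0.0292 to 0.41 for Myc and from -0.16 to 0.52 for Wnt3. The median of all genes went from 0.05 to 0.12 between 18 h and 72 h with total-count scaling and from -0.03 to -0.11 at 18 h with DESeq2, and moved less in the other cases. With 3 mice a group, the intervals of Wnt3, Myc, Ephb3 and Znrf3 at 18 h leave room for differences of the size of that of Lgr4.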
